A study of Mus musculus with 32 samples.

Results

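The whole stomach and the large bowel of newborn mice were compared, over 10 of the 32 libraries of a study of total RNA along the digestive tract. The stomach gave 4 libraries, 1 percc1-/- and 1 wild type at postnatal day 1 (P1) and at P5. The large bowel gave 6, in pairs of a percc1-/- and a wild-type library from the joined colon and rectum at P1, from the colon at P5 and from the rectum at P5. Membership followed the labelled tissue and stage alone, and no measured value was used. The percc1-/- mice lack 1512 bases at chr17:25175032-25176543 (mm9), where the targeted stretch was exchanged for a single loxP site. All mice had a mixed background of 129SvEv and C57BL/6. Whether libraries came from separate or pooled pups is not stated, and the p-values below reflect only how these libraries vary, which may be partly technical.

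The mouse stomach has a forestomach lined by stratified squamous epithelium and a glandular part with acid-secreting parietal cells, enzyme-secreting chief cells and mucous surface cells. The large bowel is lined by absorptive colonocytes and by goblet cells that secrete mucus, and it takes up salt and water. Along the gut, Sox2 and Barx1 are known for stomach identity and Cdx2 for intestinal identity. Hox genes are used in the order of their clusters, with the highest-numbered paralogs nearest the anus.

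Levels are FPKM, fragments per kilobase of transcript scaled to the size of each library and then rescaled between libraries, and a difference is on the scale of log2(FPKM + 1), stomach minus large bowel, which understates the change of genes of low level. Of 13453 genes tested with limma, 1784 differed at an adjusted p under 0.05 (13.3%), of which 1037 were higher in the stomach (7.71%) and 747 higher in the large bowel (5.55%). The groups did not overlap in 1663 genes (12.4%). The median difference of all genes tested was -0.0031. Without the wild-type stomach at P5 1149 genes passed, and 1417 to 1800 without any other single library. A gene of low level passed the filter, a mean of at least 1 FPKM, through the group where it was high, so that a list count describes the list and is no support for it. In bulk tissue, fewer cells of a type and less RNA per cell cannot be told apart.

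A large bowel and a stomach library stood apart from the others of their organ. The percc1-/- colon at P5 held gastric transcripts, with a summed level of the 18 gastric surface genes of 137 against 27.0 to 88.4 in the other large bowel libraries. The percc1-/- stomach at P1 had the lowest sum of those genes among stomachs, 190 against 431 to 518, and the highest sum of intestinal epithelium genes, 210 against 139 to 178. Without these 2 libraries, 1399 genes differed. Pancreas markers summed to 156 and 197 in the wild-type stomachs and to 25.0 and 66.4 in the percc1-/- stomachs, and liver markers to 420 in the percc1-/- stomach at P5 against 43.6 to 55.6 in the other 3. The part of these transcripts in the differences below was not tested. No record carried the name Percc1 in these 10 libraries, so that the targeted gene was not followed. The record overlapping the deleted interval with a symbol was Ift140, a gene of the cilium, at 4.47 to 8.57 FPKM as deposited.

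**Figure D1:**
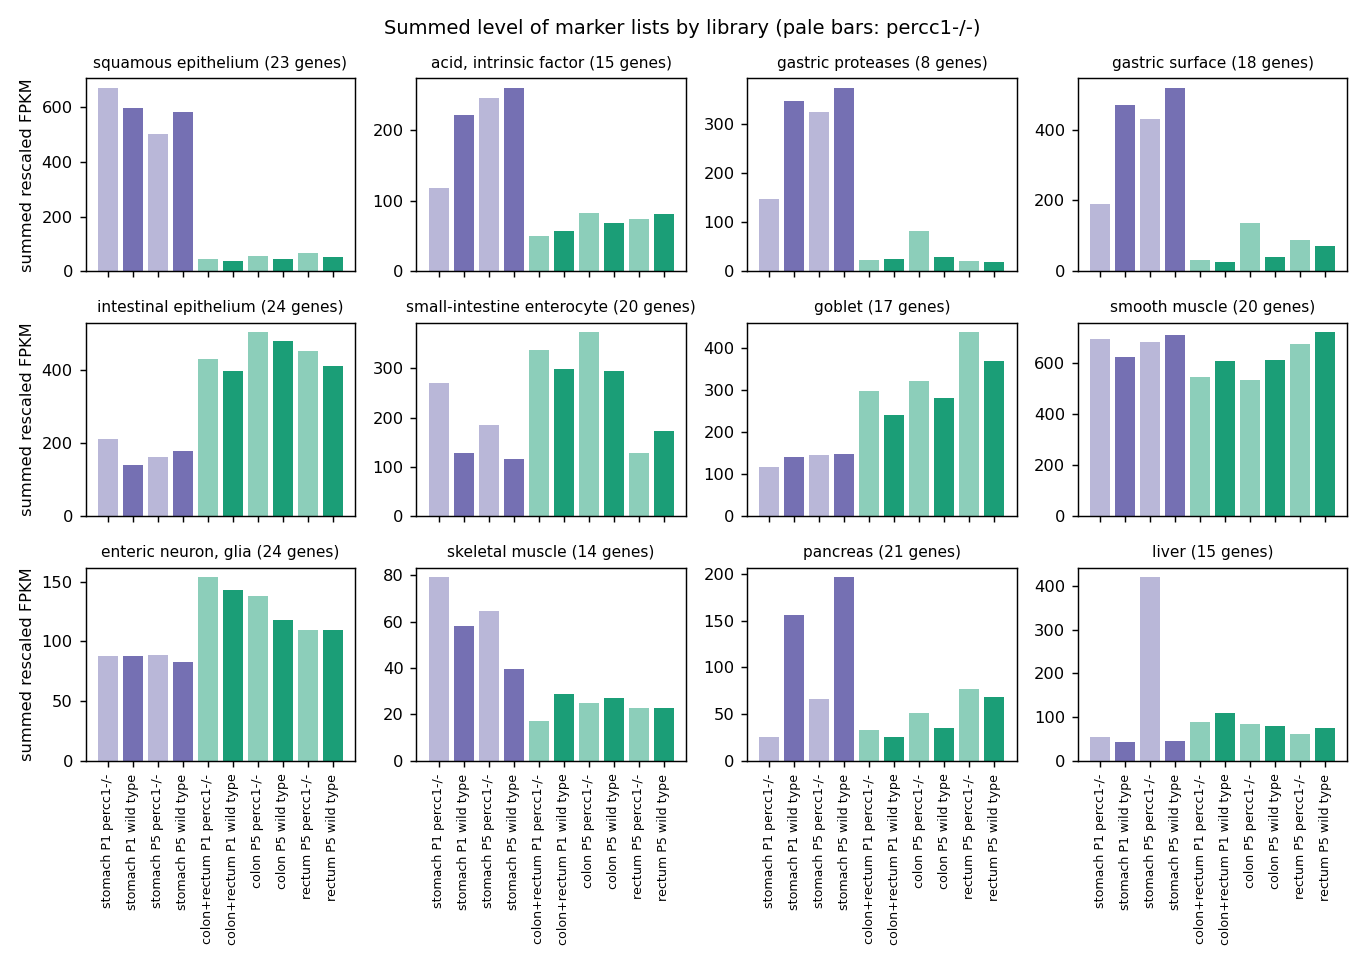
Summed level (rescaled FPKM, y axis) of marker lists in each of the 10 libraries (x axis), stomach in purple and large bowel in green, with pale bars for percc1-/-. The squamous list sums to 503 to 671 in stomach libraries and 37.5 to 67.2 in large bowel libraries, while the smooth muscle sums overlap.

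Genes known from stratified squamous epithelium, the lining of the forestomach, were among the largest differences above the large bowel. Which cells of the dissected stomach held these transcripts was not tested. All 23 tested members of the squamous epithelium list were higher in the stomach, with a median difference of 3.78, and 14 of them had a mean of 1 FPKM or more in the stomach alone. Without the 2 libraries that stood apart 20 of the 23 passed. Of the 15 genes with the largest differences above the large bowel and no overlap, Atp4a and Atp4b encode the acid pump, and Krt1, Krt4, Rptn, Crct1, Sprr3, Lor, Lce1c, Spink5 and Serpinb12 are known from stratified epithelia. The others were Lyg1, a goose-type lysozyme gene with the largest difference of all (4.97), Lypd5, Gm94 and 2310042E22Rik.

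Repetin (Rptn), a precursor of the cornified envelope that hardens surface cells, stood at 41.4 and 45.0 in the P1 percc1-/- and wild-type stomachs and at 31.5 and 40.4 in those of P5. In the 6 large bowel libraries Rptn had a lowest level of 0.0144, a median of 0.22 and a highest of 0.755. Every stomach library was therefore far above every large bowel library, and the difference was 4.96 ± 0.15 (SE, adjusted p = 6.25e-08). Loricrin (Lor), the main protein of that envelope, was at 30.7, 26.01, 21.8 and 28.6 in the same order of stomachs and at 0.0671 to 0.364 in the large bowel, with a median of 0.149. The groups were as far apart for Sprr3, a small proline-rich protein cross-linked into the envelope, at 40.5, 47.1, 37.3 and 47.5 against 0.0549 to 1.79. Krt4, a keratin of wet stratified linings, was at 44.9 ± 5.7 (SD, n = 4) in the stomach and 0.704 ± 0.668 (SD, n = 6) in the large bowel, and Krt1, a keratin of cornifying layers, at 37.2 ± 1.7 against 0.390 ± 0.325.

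Genes of basal cells were high as well as those of the surface layers. Trp63, the regulator that stratified epithelia need, was at 18.4, 11.7, 17.5 and 10.7 in the stomachs and at no more than 0.117 in the large bowel (difference 3.85 ± 0.14, adjusted p = 1.73e-07). The desmosomal cadherin Dsg3 was at 26.6, 14.1, 13.4 and 10.03 against 0.0513 to 0.224. The percc1-/- stomachs had the higher Trp63 at each age. The basal keratins Krt5 and Krt14 shared a record with neighbours in some libraries and were fitted only where listed alone. Krt5 stood at 32.4, 27.1, 27.3 and 22.9 in the stomachs and at 0.0858 to 0.448 in 4 large bowel libraries, leaving out the percc1-/- colon and the wild-type rectum (difference 4.54 ± 0.12, adjusted p = 5.08e-07). Krt14 was higher by 3.10 ± 0.23 without the wild-type rectum, and Krt8, a keratin of simple epithelia, did not pass (-0.16 ± 0.16, adjusted p = 0.61, 8 libraries).

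Not every member was near 0 in the bowel. Perp, a desmosome protein, was at 31.3 ± 2.5 in the stomach and 15.2 ± 3.1 in the large bowel (difference 1.05 ± 0.14, adjusted p = 0.000836). Pkp1, a plakophilin of desmosomes, was at 9.25 and 6.70 in the percc1-/- and wild-type rectum and at 0.154 to 1.74 in the other 4 large bowel libraries. Its call (difference 3.08 ± 0.60, adjusted p = 0.00832) was lost without the 2 libraries that stood apart (adjusted p = 0.052), and held without both rectum libraries.

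Several of these genes are neighbours. Between S100a8 and S100a11 at chr3:90472993-93330209 (mm9) lies the epidermal differentiation complex, a cluster of genes for cornified envelope proteins that includes Lor, Sprr3, Rptn, Crct1 and Lce1c. This interval was chosen after its values were seen. Of 67 genes placed there, 25 were tested and 22 of them were higher in the stomach (88.0%, against 7.71% of all genes tested), each of the 22 with a mean of 1 FPKM or more in the stomach alone. Late cornified envelope genes such as Lce1c are close copies of each other, so that reads may have been shared out among them.

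Promoters of 6 stomach genes and 2 large bowel genes are shown as examples, picked by hand among the called genes of several lists. They do not stand for their lists, whose shares are given further below. The letters are the 120 bases before the RefSeq gene start (GRCm38.p6), and capitals mark TATAAA, the core of the TATA box, and TGANTCA, the core letters of AP-1 sites.
Lor, chr3:92083143-92083262, minus strand: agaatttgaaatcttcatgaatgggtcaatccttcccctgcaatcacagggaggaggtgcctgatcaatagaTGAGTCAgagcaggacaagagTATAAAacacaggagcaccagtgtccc
Sprr3, chr3:92458721-92458840, minus strand: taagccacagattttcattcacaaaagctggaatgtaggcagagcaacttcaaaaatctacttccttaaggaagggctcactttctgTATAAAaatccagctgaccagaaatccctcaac
Rptn, chr3:93393579-93393698, plus strand: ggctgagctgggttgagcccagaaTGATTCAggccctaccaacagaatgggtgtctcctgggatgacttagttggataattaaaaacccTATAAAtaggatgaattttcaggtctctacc
Cym, chr3:107221733-107221852, minus strand: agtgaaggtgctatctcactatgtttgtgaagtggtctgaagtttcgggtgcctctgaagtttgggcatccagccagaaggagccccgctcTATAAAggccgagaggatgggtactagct
Pgc, chr17:47726722-47726841, plus strand: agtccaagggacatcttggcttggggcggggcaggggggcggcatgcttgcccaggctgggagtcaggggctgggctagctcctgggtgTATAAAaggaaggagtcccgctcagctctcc
Gkn2, chr6:87373245-87373364, plus strand: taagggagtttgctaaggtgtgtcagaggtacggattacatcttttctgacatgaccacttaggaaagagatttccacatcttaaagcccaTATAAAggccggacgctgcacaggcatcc
Aqp8, chr7:123462174-123462293, plus strand: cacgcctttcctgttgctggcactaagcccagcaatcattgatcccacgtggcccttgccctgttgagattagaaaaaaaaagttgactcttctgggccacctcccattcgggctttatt
Guca2a, chr4:119637612-119637731, plus strand: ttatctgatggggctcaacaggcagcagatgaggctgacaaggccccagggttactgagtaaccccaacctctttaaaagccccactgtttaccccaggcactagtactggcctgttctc
The 3 squamous and the 3 gland genes carry TATAAA between 27 and 33 bases before the start, and Lor and Rptn carry TGANTCA upstream of it. Aqp8 and Guca2a show neither in this window.

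Over the 250 bases before the start, on either strand, TATAAA was present in 6 of 11 called squamous genes with a promoter in the table (54.5%) and in 7 of 15 called gland and surface genes (46.7%). It was found in 0 of 23 called genes of the goblet, salt transport and intestinal epithelium lists, beside 7.03% of 9522 tested genes and 3504 of all 27025 promoters. Over all called genes with a promoter, whatever their list, TATAAA was in 12.4% of those higher in the stomach and 9.67% of those higher in the large bowel. TGANTCA stood in 6 of those 11 squamous promoters, 3 of the 15 gland and surface promoters, 3 of the 23 large bowel promoters, 4.67% of tested genes and 6.87% of all promoters. CATAAA, the core of Cdx sites, was in 7.55% of promoters of genes higher in the stomach, 8.36% of those higher in the large bowel, 6.15% of tested genes and 11.1% of all promoters, so that both called groups lay above the one background and below the other. TATAAA and TGANTCA were chosen after sequences had been looked at, and a match is a description of letters, not a binding site. TATAAA and CATAAA differ in 1 letter and cannot start at the same base.

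**Figure D2:**
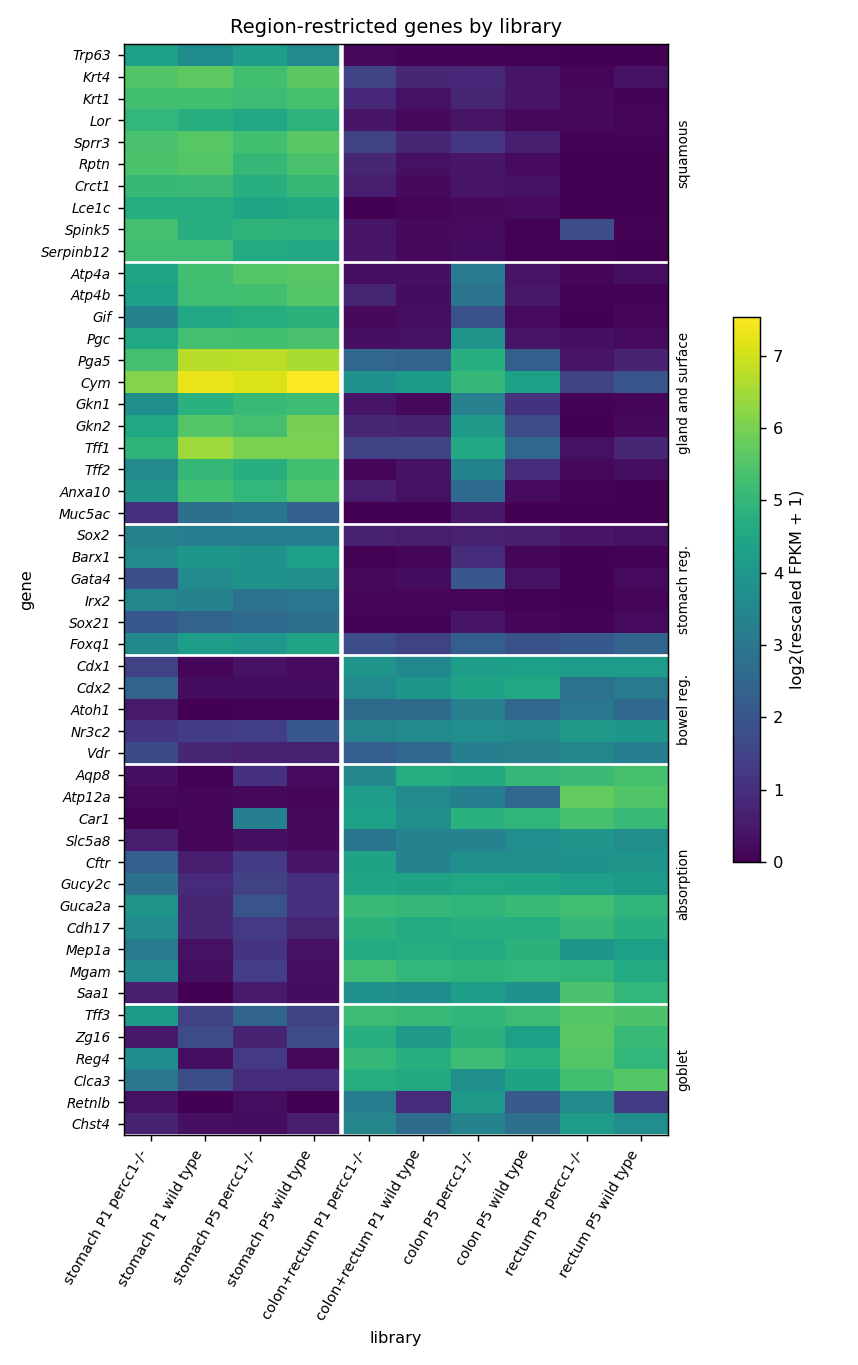
Levels of genes named in the text (rows, log2(rescaled FPKM + 1) as colour) in 4 stomach and 6 large bowel libraries (columns), grouped by list. The percc1-/- colon at P5 is brighter than the other large bowel libraries for gland and surface genes such as Pgc (13.9). The percc1-/- stomach at P1 is brighter than the other stomachs for absorption genes such as Mgam (11.4), but not for Aqp8 or Car1.

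Genes of the glandular stomach were the other large group. Of the acid and intrinsic factor list 8 of 14 tested genes were higher in the stomach and 0 lower, and of the gastric protease list 6 of 6. Of the gastric surface list 12 of 18 were higher and 0 lower. The medians were 2.61, 2.76 and 2.70. Without the 2 libraries that stood apart the counts were 10, 6 and 14 and the medians 2.96, 3.16 and 3.39.

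Atp4a, the catalytic subunit of the proton pump of parietal cells, was at 20.7 in the P1 percc1-/- stomach, 36.9 in the P1 wild type, and 45.3 and 47.2 in those of P5. In the large bowel it was at 7.65 in the percc1-/- colon at P5 and at 0.0962 to 0.315 in the other 5 libraries. The groups did not overlap (difference 4.56 ± 0.55, adjusted p = 0.000502), and without the 2 libraries that stood apart the difference was 5.18. Its partner subunit Atp4b followed the same order, from 18.2 to 46.2 in stomachs and 0.0449 to 6.54 in the large bowel. Gif, the intrinsic factor that binds vitamin B12, was at 9.31, 22.1, 24.3 and 27.8 in the stomachs, and its large bowel median was 0.159. Slc26a9, a chloride channel of the gastric lining, was higher by 3.46 ± 0.23.

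Chymosin (Cym), the milk-clotting protease of suckling mammals, had the highest level of the digestive proteases in each stomach, at 69.8, 158, 142 and 185. In the large bowel it was also listed, at 1.77 and 2.90 in the rectum and at 12.9 to 31.7 in the other 4 libraries. Its difference was 3.57 ± 0.71 (adjusted p = 0.00989), and the call was lost without the wild-type stomach at P5 (adjusted p = 0.0538). The pepsinogens Pga5 and Pgc reached 86.2 ± 32.7 and 34.5 ± 8.6 (SD, n = 4) in the stomach. For Pgc the large bowel median was 0.254, with 13.9 in the percc1-/- colon. Ctse, cathepsin E, overlapped between the organs, at 14.97 to 36.8 in the stomach and 2.88 to 17.1 in the large bowel (difference 1.96 ± 0.37, adjusted p = 0.0077).

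Genes of surface mucous cells and their protective peptides followed the same pattern. The trefoil peptide Tff1 was at 29.2, 84.8, 64.5 and 63.8 in the stomachs and at 21.5 in the percc1-/- colon, with 0.277 to 4.65 in the other large bowel libraries. Gastrokine 2 (Gkn2), at 21.5, 45.2, 38.5 and 62.5 in stomachs, was at 15.8 in that colon library and at 0 to 2.30 elsewhere in the large bowel. In both genes the stomach with the lowest level was the percc1-/- one of P1. Tff2, Gkn1 and Anxa10 were higher by 3.90, 3.98 and 4.35. Among 7 tested mucins, 4 were higher in the stomach and 1 in the large bowel (2 without the wild-type stomach at P1). For all genes tested the shares were 7.71% and 5.55%. Muc5b, a gel-forming mucin, was at 33.2 ± 12.1 against 1.38 ± 2.71, and Muc5ac, the mucin of gastric surface mucus, at 4.43 ± 2.48 against 0.0748 ± 0.176. Muc6, the mucin of gastric glands, did not pass (1.89 ± 0.68, adjusted p = 0.11), and did so without the percc1-/- stomach at P1 and colon at P5 (2.79, adjusted p = 0.0021).

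Transcription factors that mark the organs separated in both directions. Of 14 tested stomach regulators 10 were higher in the stomach and 1 lower. Of 20 intestine regulators 10 were higher in the large bowel and 2 higher in the stomach. Among all genes tested 7.71% were higher in the stomach and 5.55% in the large bowel. Sox2, which foregut identity needs, was at 9.10, 8.45, 8.59 and 8.47 in the stomachs and at 0.267 to 0.593 in the large bowel (2.70 ± 0.11, adjusted p = 4.02e-07). Barx1, a homeobox factor of stomach mesenchyme, was at 10.99, 14.95, 13.3 and 17.98, and the highest of its large bowel values was 0.977, in the percc1-/- colon. Sox2 was steady across the 4 stomachs, while Barx1 was lowest in the percc1-/- stomach at P1. Gata4, a zinc finger factor of foregut and proximal gut epithelium, was at 2.51 in the percc1-/- stomach at P1 and 10.9 to 13.5 in the others (2.86 ± 0.47), and overlapped with the 3.10 of the percc1-/- colon. The homeobox genes Irx2, Irx3 and Irx5 were higher by 3.04, 1.92 and 1.94, the Sox gene Sox21 by 2.33, the forkhead gene Foxq1 by 2.13, the LIM homeobox gene Isl1 by 1.80 and Pitx1, a bicoid-type homeobox gene, by 1.21.

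Nkx3-2, a mesenchymal homeobox gene known from the pyloric region, was the stomach regulator higher in the large bowel, at 0.784 to 3.35 against 0.0958 to 0.968. Its call (-0.95 ± 0.25, adjusted p = 0.033) was lost in 7 of 10 fits that left out 1 library, with an adjusted p of up to 0.0995. Isl1 lost its call without the percc1-/- stomach at P5 (adjusted p = 0.0659). Gata5, Six2 and Osr1 did not pass, with differences of 1.21, 0.69 and 0.07, and Gata5 and Six2 passed without the 2 libraries that stood apart (1.82 and 0.89).

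Cdx2 was at 0.178 to 0.189 in 3 stomachs and at 4.30 in the percc1-/- stomach at P1, and in the large bowel from 5.96 in the percc1-/- rectum to 21.8 in the wild-type colon. Its difference of -3.02 ± 0.49 (adjusted p = 0.00332) became -3.39 without the 2 libraries that stood apart. Cdx1, its close relative, was at 0.0661 to 1.73 against 10.4 to 18.1. Atoh1, needed for secretory cells, and Nr3c2, the aldosterone receptor, differed by -2.59 and -2.17. The vitamin D receptor Vdr, the bile acid receptor Nr1h4, the retinoid-regulated homeobox gene Isx, and the nuclear receptors Hnf4g and Hnf4a differed by -2.003, -1.55, -2.23, -1.29 and -0.92. Isx lost its call without either P5 stomach, with an adjusted p of up to 0.0564. The 2 members above the large bowel were Foxa1 (0.65 ± 0.14), a pioneer factor of endoderm, and Klf4 (0.63 ± 0.16), a factor of differentiated epithelium. Foxa1 lost its call without the percc1-/- stomach at P5 (adjusted p = 0.053) and Klf4 in 7 of 10 such fits.

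Set beside the small intestine of the same ages (8 libraries, 18 in that fit), the large bowel differed in 4997 of 13121 genes tested (38.1%), of which 2660 were higher in the large bowel (20.3%) and 2337 lower (17.8%). Atoh1 and Nr3c2 were higher in the large bowel than in the small intestine, by 1.20 and 0.88 (adjusted p = 0.000439 and 0.000129). Cdx1 and Cdx2 did not pass that test, at 0.13 ± 0.19 and -0.60 ± 0.33. This comparison and the one with the stomach share the large bowel libraries.

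Posterior Hox genes separated the organs. Of the posterior list 4 of 5 tested genes were higher in the large bowel and 0 in the stomach, and the 5 had their 1 FPKM in the large bowel alone. Without the percc1-/- colon, where neighbours were merged, 8 of 9 passed. Of the anterior list 3 of 4 tested genes were higher in the stomach, but none of 7 others fitted where listed alone passed. Hoxa13 was listed at 0 in every stomach and at 2.39 to 3.20 in colon with rectum and colon and at 7.97 and 8.81 in the rectum. Hoxa11 was at 0 to 0.0212 in the stomach and 2.70 to 5.82 in the large bowel (-2.24 ± 0.18, adjusted p = 3.57e-05), and its antisense record Hoxa11as at 0 to 0.0259 against 6.13 to 24.4. Hoxd9 differed by -1.80 ± 0.33. The stomachs were thus at or near 0 for these genes, apart from Hoxd9 at 0.113 to 0.359.

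Records merged with a neighbour left other posterior genes missing in a large bowel library, and the values without it were as far apart. Hoxa10 was at 0 to 0.0371 in the stomachs and 6.38 to 14.02 in 5 large bowel libraries, leaving out the percc1-/- colon (-3.48 ± 0.17, adjusted p = 5.19e-06). Hoxd11 was listed at 0 in every stomach and at 4.39 to 7.53 in the same 5. Hoxa9 and Hoxd10 differed by -3.25 and -2.91 over those 9 libraries. Hoxb9, listed alone in 3 large bowel libraries, differed by -2.79 ± 0.33 over 7 libraries.

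The last paralogs were not evenly spread through the large bowel. Hoxb13 was at 31.3 and 27.0 in the rectum, 10.6 and 4.001 in colon with rectum at P1, and 2.94 and 0.951 in the colon at P5, the percc1-/- library first in each pair. Its difference from the stomach, -3.07 ± 0.78 (adjusted p = 0.0297), was lost in 6 of 10 fits that left out 1 library. Hoxd13 was at 11.9 and 8.68 in the rectum and 0.415 to 1.09 in the other 4, and did not pass against the stomach (-1.54 ± 0.67, adjusted p = 0.186) although no library overlapped. Between rectum and colon at P5 they differed by 3.44 ± 0.34 and 2.89 ± 0.21 (adjusted p = 0.0182 and 0.00855).

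At the other end of the clusters most genes did not pass. Hoxc4 was at 5.25, 5.195, 4.03 and 4.81 in the stomachs and 0.301 to 2.65 in the large bowel (1.52 ± 0.23, adjusted p = 0.00219), and Hoxa2 at 3.80 to 5.52 against 2.02 to 2.84 (0.74 ± 0.12). Hoxc5 (1.53) and Hoxc8 (1.09) passed but lost their calls in 8 and 7 of 10 fits without 1 library. The 7 anterior genes with merged records, over 7 or 8 libraries each, were Hoxa3 (0.78), Hoxa4 (0.51), Hoxb3 (0.18), Hoxb4 (0.20), Hoxb5 (-0.26), Hoxd3 (-0.83) and Hoxd4 (-0.75). Hoxb2, Hoxc6, Hoxb7 and Hoxd8 did not pass, with differences of 0.32, 0.69, -0.38 and -1.10. In the rectum Hoxc5 and Hoxc6 were listed at 0, and Hoxb7 (0.784 and 0.846) and Hoxd8 (1.40 and 1.38) were below the 3.74 to 5.09 and 4.60 to 9.36 of the other large bowel libraries. The Hoxa genes lie on chromosome 6, with Hoxa2 at chr6:52112350-52115412 and Hoxa13 at chr6:52207693-52210874 (mm9, minus strand).

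**Figure D3:**
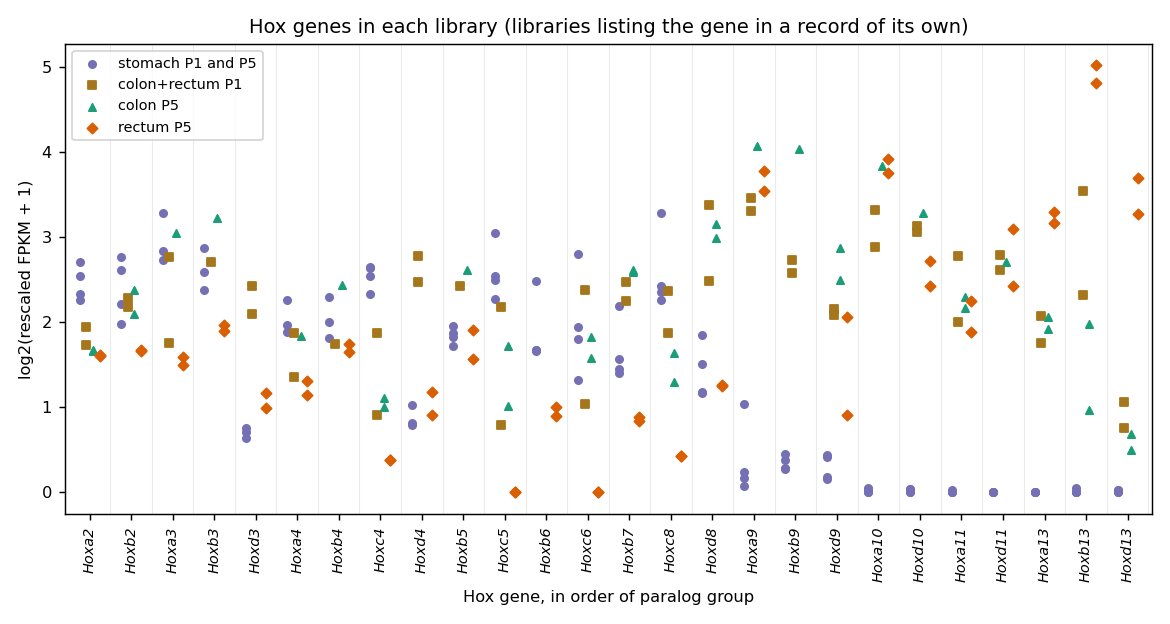
Levels of Hox genes (x axis, by paralog group) as log2(rescaled FPKM + 1) (y axis), 1 point per library that lists the gene alone. Stomach points lie at or near 0 from Hoxa10 to Hoxd13, and rectum points are the highest for Hoxa13, Hoxb13 and Hoxd13 (Hoxb13 at 31.3 and 27.0).

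The large bowel was higher for many, though not all, of the listed transporters and enzymes of the colonocyte. Of the salt and water transport list 14 of 31 tested genes were higher in the large bowel and 2 in the stomach, and 15 did not pass. Of the intestinal epithelium list 16 of 24 were higher in the large bowel and 0 in the stomach. The shares of all genes tested were 5.55% and 7.71%. The medians were -0.57 and -1.19. Without the 2 libraries that stood apart 11 and 14 genes were higher in the large bowel.

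The water channel Aqp8 was at 0.247, 0.0389, 1.12 and 0.156 in the stomachs, and in the large bowel at 10.2 at the lowest, 27.8 at the median and 39.7 at the highest (-4.16 ± 0.28, adjusted p = 1.2e-05). Atp12a, the colonic proton-potassium pump, was at 0.0731 to 0.120 in the stomachs and at 52.1 and 43.9 in the rectum against 4.79 to 16.8 in the other 4 libraries. Atp4a and Atp12a, related pumps, were thus high in opposite organs. Car1, carbonic anhydrase 1, was at 12.2 to 39.9 in the large bowel and at no more than 0.147 in 3 stomachs, with 8.54 in the percc1-/- stomach at P5. That stomach also had the highest sum of spleen and blood markers among stomachs, 44.05 against 10.56 to 14.44. Whether this bears on its Car1 level was not tested. The epithelial sodium channel subunit Scnn1b did not pass (0.73 ± 0.39, adjusted p = 0.29), at 7.26 to 9.40 in the stomach and 1.49 to 13.3 in the large bowel. Its partner subunits Scnn1a (0.98) and Scnn1g (0.92) did not pass either. The list members higher in the stomach were the glycerol channel Aqp3 (3.003 ± 0.23) and Prss8 (0.88).

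Guca2a, which encodes the salt-regulating peptide guanylin, was at 14.01 in the percc1-/- stomach at P1 and 0.722, 1.03 and 2.81 in the other 3, against 29.4 to 36.6 in the large bowel (-3.19 ± 0.44, adjusted p = 0.0012). Its receptor Gucy2c differed by -2.86 ± 0.27, the chloride channel Cftr by -2.71 ± 0.25 and the short-chain fatty acid carrier Slc5a8 by -3.14 ± 0.20. Mgam, a starch-digesting enzyme of the brush border, was at 11.4 in the percc1-/- stomach at P1, 0.223 to 1.57 in the other stomachs and 23.5 to 36.8 in the large bowel. The same stomach was thus the highest for each of Guca2a, Gucy2c, Cftr and Mgam. Ush1c and Cdhr5, of the link complex between microvilli, Mep1a, a meprin protease, and Cdh17, an intestinal cadherin, differed by -3.48, -3.10, -3.36 and -3.24.

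Other genes among the 15 with the largest differences were G630016D24Rik, listed at 0 in every stomach and at 14.02 to 21.5 in the large bowel, and Sval1, 1810065E05Rik, 2010001M06Rik and 1810030J14Rik, at -3.98, -3.87, -3.59 and -3.56. Hao2, a peroxisomal hydroxyacid oxidase, Saa1, an acute phase protein, and Clec2h, a lectin-like gene, were at -3.90, -3.85 and -3.63. The antimicrobial list had 5 genes higher in the large bowel and 2 in the stomach of 21 tested. Among all genes tested the shares were 5.55% and 7.71%. Without the 2 libraries that stood apart the list had 4 each way. Without the percc1-/- stomach at P1 alone, 4 were higher in the stomach. Pigr, the antibody carrier of mucosal epithelium, differed by -2.94 ± 0.39, and lactoferrin (Ltf) and the beta-defensin Defb1 were higher in the stomach, by 2.38 ± 0.28 and 2.32 ± 0.18.

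Against the small intestine, the large bowel was higher for Atp12a (3.30 ± 0.60), Car1 (3.54 ± 0.61), Saa1 (3.09 ± 0.45), Slc5a8 (1.91 ± 0.38) and Aqp8 (1.49 ± 0.51, adjusted p = 0.0305). Mgam, Gucy2c, Guca2a, Cdh17, Mep1a and Cftr did not pass there, with differences from -0.80 to 0.47. G630016D24Rik was lower in the large bowel than in the small intestine, by -0.70 ± 0.09. Genes above the stomach in the large bowel thus included some above the small intestine and some that did not pass there. Not passing does not show equal levels. Small intestine enterocyte markers summed to 295 to 373 in the 4 large bowel libraries with colon and to 128 and 173 in the rectum, and Lct, the lactase gene, reached 14.02 in the percc1-/- colon.

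Goblet cell genes were higher in the large bowel in 8 of 16 tested members and in 0 lower, with a median of -1.14. Of all genes tested 5.55% were higher and 7.71% lower there. Tff3, the trefoil peptide of goblet cells, was at 16.2 in the percc1-/- stomach at P1, 1.77, 4.47 and 1.77 in the other 3, and 30.4 to 46.0 in the large bowel (-2.90 ± 0.41, adjusted p = 0.00133). Zg16, a mucus lectin that binds bacteria, was at 0.433, 2.27, 0.674 and 2.28 against 15.5 to 48.1 (-3.54 ± 0.35). Reg4, a secreted lectin, differed by -3.77 ± 0.47, Clca3, a mucus-associated protein, by -3.12 ± 0.45 and Retnlb, a resistin-like peptide, by -2.32 ± 0.38. The rectum had the highest large bowel levels of Tff3, Zg16, Reg4 and Clca3 (46.0, 48.1, 45.3 and 46.2). Agr2, a mucin-folding enzyme, and Spdef, a secretory cell factor, did not pass (-0.32 ± 0.18 and -0.43 ± 0.21), with Agr2 at 19.3 to 39.7 in the stomach and 34.8 to 51.8 in the large bowel.

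Enzymes that build mucin sugars were also higher in the large bowel, 8 of 21 tested against 0, with a median of -0.57. For all genes tested the shares were 5.55% and 7.71%. The count was 5 without the 2 libraries that stood apart, 4 without either P5 stomach, and 5 without the percc1-/- stomach at P1, the percc1-/- colon with rectum or the wild-type rectum. The 3 with the largest differences were the sialyltransferase gene St6galnac1 (-2.86 ± 0.44), the sulfotransferase gene Chst4 (-2.85 ± 0.26) and B4galnt2 (-2.02 ± 0.19), which makes the Sd(a) sugar. Among the claudins, which set the ion permeability of tight junctions, 5 of 13 tested were higher in the large bowel and 2 in the stomach. For all genes tested these shares were again 5.55% and 7.71%. Cldn18, the gastric claudin, was at 11.9, 25.2, 22.9 and 29.5 in the stomachs with a large bowel median of 0.0676, and Cldn1 was higher by 1.90 ± 0.16. Cldn8, a sodium barrier claudin of the colon, was at 0.588 to 1.38 in stomachs and 11.1 to 19.2 in the large bowel (-3.12 ± 0.18, adjusted p = 4.58e-06). Cldn2, a channel for sodium and water, Cldn3 and Cldn7 differed by -2.80, -2.75 and -1.83.

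**Figure D4:**
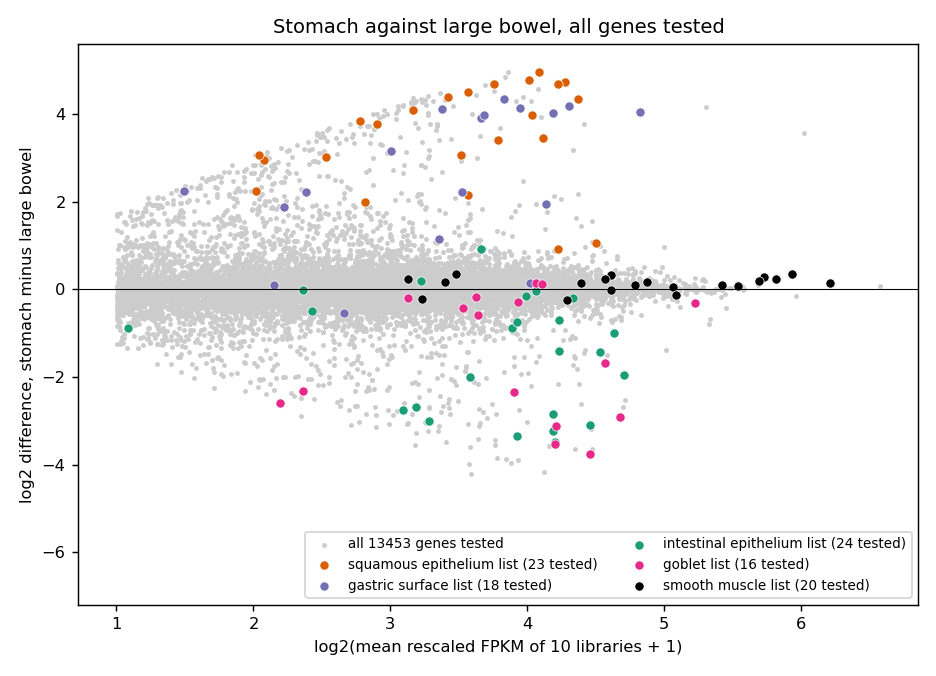
Difference between stomach and large bowel (y axis, log2) against mean level of the 10 libraries (x axis, log2(rescaled FPKM + 1)) for 13453 genes, with 5 lists in colour. Squamous genes lie above 0 (median 3.78), smooth muscle genes near 0 (median 0.16) and intestinal epithelium and goblet genes mostly below (medians -1.19 and -1.14).

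Smooth muscle genes did not pass between the organs, while many nerve and striated muscle genes did. By limma 0 of 20 smooth muscle and pacemaker genes passed, beside 13.3% of all genes tested. Of the 20, 4 had an unadjusted p under 0.05, beside 3478 of all 13453, and the median was 0.16. Without the wild-type colon with rectum 2 passed, higher in the stomach. Myh11, smooth muscle myosin, was at 56.4 to 84.4 in the stomach and 57.6 to 98.6 in the large bowel (0.14 ± 0.15), and Acta2, smooth muscle actin, at 50.5 to 74.9 and 46.3 to 57.9 (0.24 ± 0.13). Of 18 enteric neuron and glia genes 11 were higher in the large bowel and 0 in the stomach, with a median of -0.54, and 7 without the 2 libraries that stood apart. The neuronal RNA-binding protein Elavl4, the nitric oxide synthase Nos1 and the neuropeptide Gal differed by -1.06, -0.89 and -1.23.

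Of 9 tested skeletal muscle genes 7 were higher in the stomach, 5 without the 2 libraries that stood apart. Myh3, embryonic myosin, was at 11.1, 7.04, 7.58 and 3.20 in the stomachs and at 0.0450 to 0.336 in the large bowel (2.65 ± 0.24, adjusted p = 8.21e-05). Myog, a regulator of muscle differentiation, was at 6.79, 4.26, 2.35 and 1.14, and the fast light chain Mylpf was higher by 2.02 ± 0.22. Where in the dissected piece these transcripts lay was not tested. Pancreas markers were higher in the stomach in 7 of 16 tested genes and in the large bowel in 1. Among all genes tested these shares were 7.71% and 5.55%. The 7 became 2 without the wild-type stomach at P5 and 4 without the wild-type colon with rectum. The digestive enzymes Cel and Clps differed by 2.59 ± 0.48 and 2.47 ± 0.25, and Ctrb1 (2.67 ± 0.59) was at 25.2 and 25.6 in the wild-type stomachs against 0.983 and 4.72 in the percc1-/- ones. Ctrb1 lost its call without the wild-type stomach at P5 or the wild-type colon with rectum (adjusted p of up to 0.0869).

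The signal list held secreted signals, receptors, retinoid enzymes and the factor Gli1. Of its 32 tested genes 6 were higher in the stomach and 3 in the large bowel. The shares of all genes tested were 7.71% and 5.55%. Wnt4, a Wnt ligand, was at 25.9, 14.1, 12.6 and 12.0 in the stomachs and 2.62 to 4.30 in the large bowel (1.95 ± 0.21, adjusted p = 0.000275), and Wnt11 was higher by 0.96 ± 0.19. Shh, the hedgehog ligand, was at 0.843 to 4.32 against 0.0994 to 0.547 (1.51 ± 0.27), while its receptor and target Ptch1 was lower, at 12.9 to 18.7 against 24.1 to 29.7 (-0.70 ± 0.11). With unnamed overlapping records added, the difference of Ptch1 was 0.0162. Cyp26b1, which breaks down retinoic acid, was at 15.2 in the percc1-/- stomach at P1, 3.23 to 5.64 in the other 3 and 0.339 to 1.16 in the large bowel. The BMP antagonist Grem1 and Bmp3 were higher in the large bowel, at -1.11 ± 0.18 and -0.84 ± 0.15.

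Of 17 crypt and stem cell genes 4 were higher in the stomach and 1 in the large bowel. Over all genes tested the shares were 7.71% and 5.55%. The 4 became 2 in 6 fits without 1 library, namely the wild-type stomach at P1, either P5 stomach, either colon with rectum or the wild-type rectum. The receptor gene Tnfrsf19 was higher in the stomach by 1.63 ± 0.13. The ephrin receptors went in opposite directions, Ephb3 by 1.02 ± 0.14 and Ephb2 by -0.78 ± 0.09. Olfm4, a stem cell marker of the small intestine, passed at 1.82 ± 0.52 (adjusted p = 0.0491) and lost its call in 8 of 10 fits without 1 library. Nkx2-3, a mesenchymal homeobox gene of gut and spleen, was at 1.08 to 2.68 in the stomach and 7.95 to 11.5 in the large bowel (-2.06 ± 0.14).

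Several hormone genes were lower in percc1-/- than in wild-type libraries of either organ, and few passed between the organs. Of 13 tested, Sst and Nucb2 were higher in the stomach and Sct in the large bowel, beside 7.71% and 5.55% of all genes tested. Without the wild-type stomach at P5, Sst alone of these was higher in the stomach. Sst, somatostatin, was at 14.6 and 23.4 in the wild-type stomachs at P1 and P5 and at 0.996 and 6.52 in the percc1-/- ones. In the large bowel it was at 3.69 to 5.53 in wild type and 0.111 to 0.901 in percc1-/-. Within each genotype every stomach was thus higher, in percc1-/- by little (0.996 against 0.901). The fit over both genotypes gave 1.77 ± 0.29 (adjusted p = 0.00355). Sst lost its call in percc1-/- only, at P1 only and without covariates. Secretin (Sct) was at 0.229 to 1.54 in the stomach and 1.18 to 15.1 in the large bowel, and its call (adjusted p = 0.028) was lost in 6 of 10 fits without 1 library.

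Ghrl, which encodes the stomach hormone ghrelin, was at 37.9 and 40.7 in the wild-type stomachs and listed at 0 in both percc1-/- stomachs, and at 0 to 4.51 in the large bowel. With overlapping records without a symbol added, the percc1-/- stomachs stood at 8.25 and 6.57, the wild types at 39.5 and 43.4 and the large bowel at 4.73 to 10.2, a range that holds both percc1-/- stomachs. Ghrl did not pass between the organs (1.88 ± 0.76, adjusted p = 0.15), nor did gastrin (Gast), at 5.08 and 11.5 in the wild-type stomachs (1.65 ± 0.51, adjusted p = 0.068). Peptide YY (Pyy) was at 17.4, 18.5 and 25.4 in wild-type large bowel and 6.27 and 9.78 in wild-type stomachs, and at most 0.758 and 3.82 in the percc1-/- libraries of the respective organs. Insulin-like peptide 5 (Insl5), a colonic hormone, was at 6.35, 7.13 and 18.9 in wild-type large bowel, at most 0.424 in its percc1-/- libraries and at most 0.339 in any stomach. Glucagon (Gcg) was at 9.46 to 12.4 in wild-type large bowel and 6.32 and 6.46 in wild-type stomachs, and neurotensin (Nts) at 11.2 and 12.1 in wild-type colon with rectum and colon but 0.455 in wild-type rectum.

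Whether the difference between the organs itself depended on genotype was tested for all genes. The interaction passed for 7 of 13453 genes (0.052%), and for no hormone. Its estimate, percc1-/- minus wild type of the stomach difference, was -3.89 ± 0.80 for Ghrl (adjusted p = 0.48), 3.13 ± 0.55 for Insl5 (0.33) and -2.74 ± 0.46 for Gast (0.26). Leaving out the wild-type colon at P5 brought Ghrl to an adjusted p of 0.0382, and leaving out the percc1-/- stomach at P1 brought Pyy to 0.0416. The serotonin carrier Slc18a1 and the granule protein Chgb, of other enteroendocrine cells, were higher in the large bowel (-1.61 ± 0.28 and -0.88 ± 0.17), and Chgb did not pass without the percc1-/- stomach at P1 and colon at P5 (adjusted p = 0.0526).

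**Figure D5:**
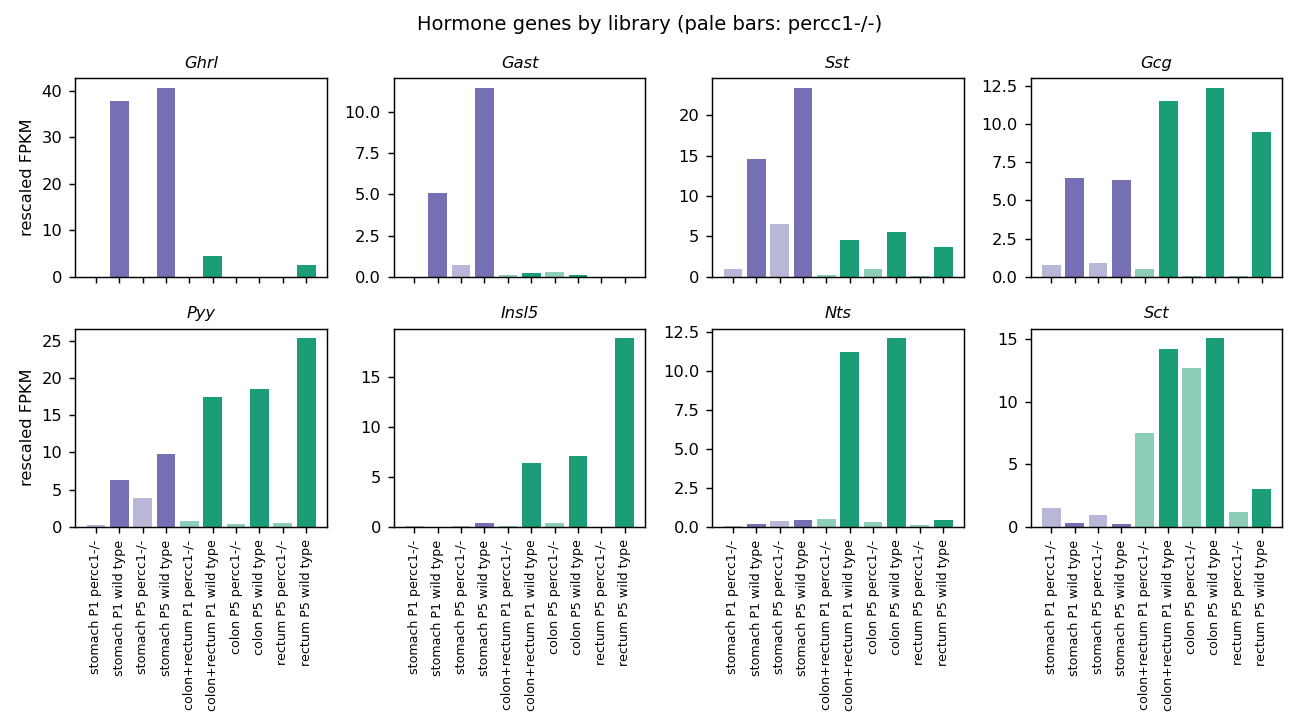
Rescaled FPKM (y axis) of hormone genes in each of the 10 libraries (x axis), stomach in purple and large bowel in green, with pale bars for percc1-/-. Ghrl is at 37.9 and 40.7 in the wild-type stomachs and listed at 0 in the percc1-/- stomachs, and Insl5 is highest in the wild-type rectum at 18.9.

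Of the 7 genes with a genotype interaction, Prelid1, Stambpl1 and Trmu were listed at 0 in both percc1-/- stomachs and at 24.1 and 25.2, 7.09 and 7.01, and 10.4 and 9.12 in the wild-type ones. With unnamed records added, the percc1-/- stomachs at P1 and P5 stood at 9.94 and 0 for Prelid1, at 57.7 and 53.7 for Stambpl1 and at 15.1 and 10.51 for Trmu. The wild-type stomachs then stood at 24.2 and 25.2, at 33.4 and 62.3, and at 14.4 and 26.6. Both percc1-/- stomachs then lay below both wild types for Prelid1, and the genotypes overlapped for Stambpl1 and Trmu. Cela2a, Try4 and Try5, genes of pancreatic proteases, were at 14.8 and 11.5, 5.58 and 4.40, and 8.58 and 6.86 in the wild-type stomachs and at no more than 0.228 in the percc1-/- ones. Gm11602 was listed by itself in the percc1-/- stomachs alone, at 4.804 and 8.59, but with unnamed records added it was at 34.7 and 42.2 there, 42.3 and 60.5 in the wild-type stomachs and 36.3 to 67.8 in the large bowel. Without the percc1-/- stomach at P1 and the percc1-/- colon at P5 74 genes passed, without that stomach alone 68 and without the percc1-/- stomach at P5 56. The interaction with stage passed for 3 genes (0.0223%), each with 2 stomach libraries of 1 stage listed at 0, and for 0 by limma without the 2 libraries that stood apart, where 707 had an unadjusted p under 0.05. It passed for 0 without either library of joined colon and rectum (670 and 821 unadjusted), 24 without the wild-type stomach at P1 and 49 without that of P5.

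Within the large bowel, rectum and colon at P5 differed in 52 genes (0.387%), of which 19 were higher in the rectum (0.141%) and 33 higher in the colon (0.245%). This rests on 2 libraries a side, with the spread shared with the other pieces, and by limma 0 genes passed without the percc1-/- or the wild-type rectum (872 and 1393 at an unadjusted p under 0.05). Leaving out any other library gave 9 to 80 genes. Beside Hoxb13 and Hoxd13, the 5 largest above the colon were 2310079G19Rik (3.37 ± 0.26), the actin regulator Evl (3.16 ± 0.26) and the transglutaminase Tgm3 (3.02 ± 0.26). Tgm3 was at 37.1 and 18.4 in the rectum and 4.05 and 1.24 in the colon, and at 11.4 to 20.7 in the stomachs. Evl was listed at 0 in both colon libraries at P5 and at 7.73 to 15.3 in the other 8. The 5 largest below included Lgals2, a galectin listed at 0 in both rectum libraries, the chloride-bicarbonate exchanger Slc26a3 (-3.48 ± 0.45), Gm2061 and Cym (-2.94 ± 0.38). Slc26a3 was at 18.9 and 12.9 in the colon and 0.530 and 0.454 in the rectum. Each of these genes lost its call without a rectum library. Over all 10 fits that left out 1 library, Gm2061 and Slc26a3 passed in 2, Cym in 3 and the others named here in 6 to 8.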

How the data were processed

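Total RNA was sequenced from 10 stomach and large bowel libraries (4 and 6) of mouse pups, with 8 small intestine libraries as a further reference. The authors deposited a gene table of FPKM per library, and TopHat2 2.0.13, SAMtools 0.1.18, Cufflinks 2.2.1 and mm9 are named in the submitters' processing notes; per the labels' protocols the libraries were stranded and depleted of ribosomal RNA. The gene annotation behind the tables: not given in the sources used here. Records with a symbol held 18.4% to 29.5% of the summed FPKM of these 10 libraries, and the highest FPKM of any gene was 77.8 to 204. The tables hold no counts, so depth is unknown.

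FPKM of records with 1 symbol were summed, and genes with a failed or merged record in a library were left out (836 of 22488 symbols). Of 4340 genes with a mean of 10 FPKM or more, 27 were listed at 0 in some library, so a 0 is not read as absence. Each library was divided by its median ratio to the geometric means of the genes (0.892 to 1.10). limma 3.58.1 in R 4.3.3 was run on log2(FPKM + 1) with stage and genotype as covariates, trend and robust options, a mean of at least 1 FPKM, and Benjamini-Hochberg adjustment at 0.05. It was tested on simulated data. Merged genes were fitted apart, where at least 2 libraries of each organ list them, a step chosen after the data had been seen. Alternatives changed the pseudocount, filter, scaling, records, design and libraries. Named genes were up to 15 called each way with the largest difference and no overlap, up to 4 each way of each of 32 lists, all Hox genes and regulators tested, and up to 5 each way in the other tests; not every gene that meets this rule is printed, some genes are not reported here, and in some lists members of smaller change were printed for their role. Members and lists were chosen with earlier results of these data known. Positions are from GENCODE vM1 (mm9) and promoters from RefSeq (GRCm38.p6).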

Additional observations from a re-analysis of the deposited data

Results flagged for a closer look

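Among the genes named here, 328 groups of 4 or 6 libraries were examined for a library far from the rest of its organ, and 50 had one. The cut-off used would flag about 1 in 20 groups of independent, normally distributed values. These genes vary together and were chosen with earlier results known, so that the 50 are no test against chance.

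In the percc1-/- colon at P5, 16 genes were far above the other large bowel libraries, most of them gastric. Acid genes were Atp4a (7.65), Atp4b (6.54) and Gif (2.74), and proteases Pgc (13.9) and Pga5 (26.04). Surface genes were Gkn1 (8.78), Gkn2 (15.8), Tff1 (21.5), Tff2 (9.60), Anxa10 (5.22), Cldn18 (3.999), Muc5b (6.90) and Muc6 (8.65). The others were Gata4 (3.10), 2310042E22Rik (1.55) and Lct (14.02).

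In the percc1-/- stomach at P1, 25 genes were far from the other stomachs. Pga5 was low (37.8). High were the intestinal regulators Cdx1 (1.73), Cdx2 (4.30), Isx (4.21) and Vdr (2.25), and the intestinal genes Slc26a3 (3.83), Guca2a (14.01), Mep1a (7.61), Cdh17 (11.2), Ush1c (5.50), Cdhr5 (15.3), Mgam (11.4), Pigr (4.03), Clec2h (11.6), Reg4 (11.6), St6galnac1 (4.15) and Lct (7.96). High as well were 2010001M06Rik (5.25), 1810030J14Rik (5.46), Gm2061 (1.91), Pkp1 (32.5), Irx3 (6.16), Hoxc8 (8.69), Hoxb7 (3.54) and Wnt4 (25.9). The part of intestinal transcripts in the differences was not tested.

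Other single libraries far above their organ were the wild-type joined colon and rectum at P1 for Osr1 (15.1), Hoxc4 (2.65) and Hoxa2 (2.84), the wild-type rectum for Isl1 (6.11) and Wnt4 (4.30), and the percc1-/- rectum for Spink5 (2.45) and Pnliprp1 (1.11). Among stomachs these were the percc1-/- one of P5 for Car1 (8.54) and the wild-type one of P5 for Scnn1b (9.40).

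A limma interaction of organ with genotype (percc1-/- minus wild type, log2) passed on the levels as listed for several genes. They were Prelid1 (-4.80), Cela2a (-3.82), Trmu (-3.44), Stambpl1 (-3.14), Try5 (-3.06), Try4 (-2.52) and Gm11602 (2.90). The interaction with stage (P5 minus P1) passed for 1110005A03Rik (3.30), Tatdn1 (3.28) and D330041H03Rik (-2.91). All but Try4 and Try5 have exact zeros in both stomach libraries of a genotype or stage.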

How the results depend on the processing

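Of 127 named genes called between the organs, 114 were called in every fit that left out 1 library, and all 127 kept their direction there. In smaller sets of libraries 69 named genes lost their call in percc1-/- only, 47 at P1 only, 29 at P5 only and 26 in wild type only. Over all settings 78 lost it in 1 or more. The count of 1784 fell to 1056 with a mean of at least 5 FPKM, 871 in wild type only, 421 in percc1-/- only, 574 at P1 only and 926 at P5 only, where fewer genes or libraries enter, and ranged from 1149 to 1800 without 1 library. The 7 genotype interactions became 4 with a pseudocount of 0.1, 3 with a mean of at least 5 FPKM, 11 with FPKM as deposited, 3 without genes listed at 0 in a group of higher level and 74 without the 2 libraries that stood apart (4 to 68 without 1 library). The 3 stage interactions became 1 with the higher filter and 0 without those 2 libraries (limma, 707 at an unadjusted p under 0.05), and 0 to 49 without 1 library. The 52 rectum genes became 22 with the higher filter and 83 with FPKM as deposited, and 0 to 80 without 1 library. Between large bowel and small intestine 4187 to 5268 genes passed without 1 library. Ptch1 reversed to 0.0162 with unnamed overlapping records added. Hoxa2, which did not pass against the whole small intestine, reversed to 0.42 against its lower part alone and passed there (limma, adjusted p = 0.0391). The cause of either reversal was not tested. With merged genes fitted 1853 genes passed. Leaving out libraries, the zero rule and merged genes were chosen after seeing the data, save single libraries. No paired analysis was possible because the labels carry no numbers that tie a stomach to a large bowel library, and those used here follow accession order; matched by stage and genotype as a block of covariates, 1689 genes passed. Depth is unknown, so low values carry an unknown counting error.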
